A study of Mus musculus with 6 samples.

Results

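The genes described here build and remodel the actin skeleton of a nerve cell: 42 genes for actin itself and for the proteins that store, nucleate, elongate, cut, cap, bundle and anchor its filaments. They were chosen by name, though with earlier results of these data known. All 42 were found among the 41388 genes of the deposited tables. RNA sequencing was available for 6 libraries of EGFP-positive cells sorted by flow cytometry from dorsal root ganglia, where the cell bodies of sensory neurons lie, of C57BL/6 mouse embryos at 18.5 days post coitum. The embryos carried RetFloxedEGFP, an allele that makes EGFP from the Ret locus after recombination, and Cre recombinase under the locus of Scn10a, the gene of the pain neuron sodium channel Nav1.8. The genotype label reads RetFloxedEGFP / Scn10a<tm2(cre)Jnw> for 5 libraries and stops after RetFloxedEGFP for male C, while the titles of all 6 name NaV1.8Cre. By title all libraries share both alleles and no group lacks them, and the copy number of the Ret allele is not given. Females and males contributed 3 libraries each, named A, B and C. The 3 female libraries and male A each came from 40 ganglia of 2 embryos, male B from 60 ganglia of 3 embryos, and male C from 20 ganglia of a single embryo. The ganglia ran from thoracic level 11 to the first sacral level.

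As background, actin monomers are held in reserve by thymosins and delivered by profilin to growing filament ends. At the tip of a growing axon, the growth cone, formins and Ena/VASP proteins extend straight filaments that fascin bundles into filopodia, while the Arp2/3 complex, switched on by WASP and WAVE proteins, branches filaments into lamellipodia. Along the axon shaft, short filaments capped by adducin form rings that spectrin tetramers space into a periodic lattice, to which ankyrins fasten channels and adhesion molecules.

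Total counts ran from 15.69 to 24.03 in units of 1e+06 reads, and the members took between 2.34% and 2.74% of the counts of a library. Levels are given as RPKM, reads per kilobase of gene length scaled to 1e+06 reads, with library sizes scaled by TMM, so that genes can be compared per length. A level written with ± is a mean and SD over the 6 libraries. The listed sensory neuron markers were high, led by Tubb3 at 2150.5 ± 504 RPKM, with Scn10a at 119 ± 16.8 RPKM and Ret at 27.8 ± 3.83 RPKM. Of the glial list, Pmp22 at 346 ± 43.8 RPKM and Fabp7 at 310 ± 56.0 RPKM were highest. The list summed to 961 to 1141 RPKM per library, with a median gene mean of 23.2 RPKM. Its lower genes included Sox10 at 3.78, Erbb3 at 5.67, Cdh19 at 3.53 and Foxd3 at 0.494 RPKM. Of the fibroblast list, Dcn stood at 133 ± 13.7 RPKM. The others were Col1a1 at 10.5, Col1a2 at 8.98, Col3a1 at 7.61, Lum at 2.72, Pdgfra at 0.290 and Twist1 at 0.058 RPKM. The summed endothelial list ran from 1.02 to 1.78 RPKM per library and the leukocyte list from 0.862 to 1.60. In such bulk samples a smaller number of cells of a type and less RNA per cell cannot be told apart, and how much of any actin gene's RNA came from glia or other cells was not tested.

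Most of the actin genes were abundant. The median member level was 54.5 RPKM, against 3.93 RPKM over the 15026 genes that passed the filter on low counts, and 38 of 42 members lay above the latter value. Levels were at least 100 RPKM for 15 members, between 10 and 100 RPKM for 18, and under 10 RPKM for 9, of which Diaph2 at 0.441 ± 0.085 RPKM was the only member under 1 RPKM. Every member had at least 49 reads in every library. Between neighbours in the order of levels, the mean difference within libraries exceeded its own SD for 12 of 41 steps, so most neighbours could not be ordered with 6 libraries.

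**Figure D1:**
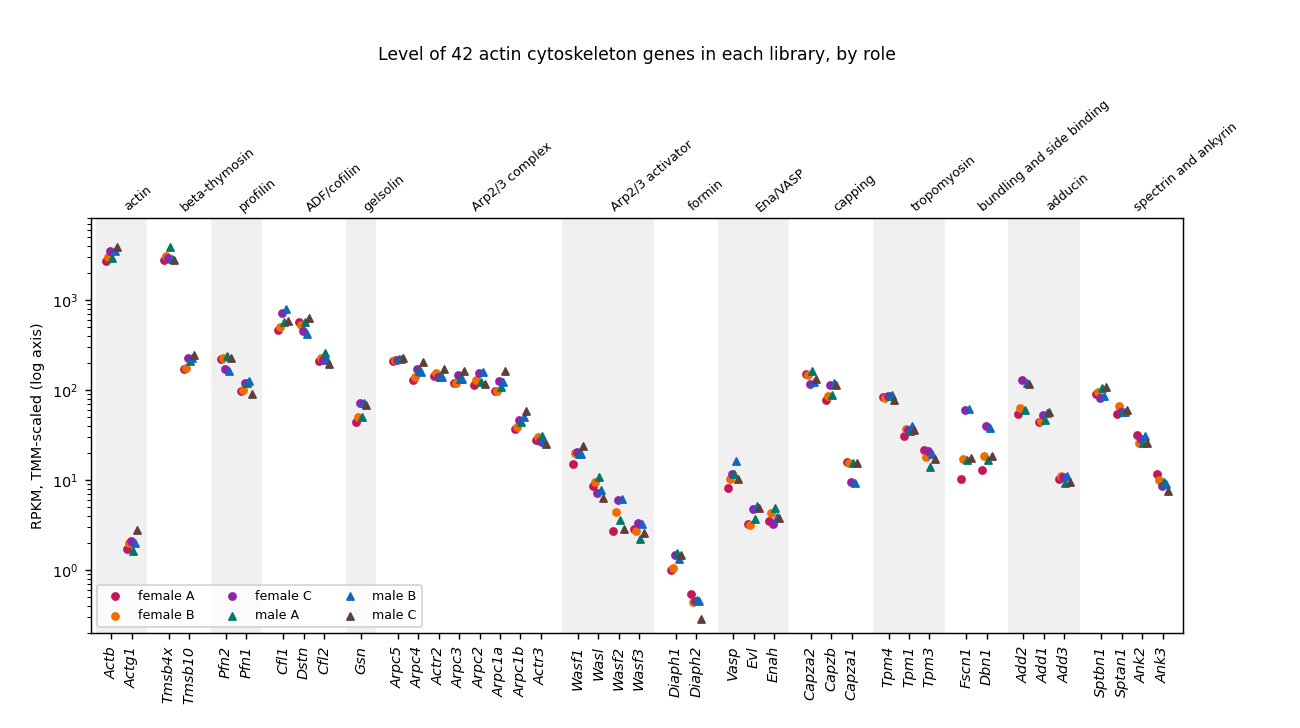
Level of each of the 42 genes in RPKM on a log axis, grouped by role, with 1 point per library (circles female, triangles male). Actb and Tmsb4x stand at means of 3247 and 3045 RPKM, Actg1, Diaph1 and Diaph2 stand at means of 2.04, 1.32 and 0.441 RPKM, and the libraries of Fscn1, Dbn1 and Add2 are spread farther apart than those of other genes.

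The actin of these libraries was counted almost wholly as beta-actin. Actb (chr5:142903115-142906754, coordinates of the deposited tables, build GRCm38.p2) had the highest mean of the members, at 2700.0, 3006 and 3516 RPKM in female A to C and 2941, 3475 and 3846 in male A to C. Actg1, the cytoplasmic gamma-actin gene (chr11:120345690-120348542), was at 1.73, 1.98 and 2.11 RPKM in female A to C and 1.63, 2.02 and 2.78 in male A to C, from 73 to 134 reads per library. Actb was 1600.5-fold above Actg1 as a geometric mean, from 1382-fold to 1802-fold over the 6 libraries. These sister genes encode nearly identical proteins, and 37.4% of the 50-base words of annotated Actg1 transcripts also occur in transcripts of other genes. The processed pseudogene Gm12715 alone holds 33.2% of the words of Actg1, in stretches of up to 857 bases. For Actb the share was 9.1%. Gm12715 itself had 19 to 60 reads per library. The sources used here do not say how reads matching more than 1 place were counted, so the level of Actg1 is uncertain, and the part of shared sequence in its low count was not tested. The muscle actins of the wider list were low as well, with Acta1 at 5.63 ± 0.858 RPKM and Actc1, the lowest gene of its list, at 0.060 ± 0.059 RPKM.

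Actg1 is shown with its promoter because it is the low member of the widest pair and because it was 1 of 2 members, with Arpc4, whose promoter window held a CArG box. The CArG box is the motif bound by serum response factor, which controls many actin genes. It was searched on the RefSeq promoter table (build GRCm38.p6), in windows from 250 bases before to 50 after the start; its pattern is palindromic, so 1 search covers both strands. Of the 42 members, 39 matched the table; Actb, Ank3 and Diaph1 did not. A box was found in 2 of 39 members (5.13%) and in 488 of 27025 genes (1.81%). The 250 bases before the start of Actg1, chr11:120348496-120348745 on the minus strand, are given 5′ to 3′ with the box in capitals; it begins 90 bases before the start.
Actg1: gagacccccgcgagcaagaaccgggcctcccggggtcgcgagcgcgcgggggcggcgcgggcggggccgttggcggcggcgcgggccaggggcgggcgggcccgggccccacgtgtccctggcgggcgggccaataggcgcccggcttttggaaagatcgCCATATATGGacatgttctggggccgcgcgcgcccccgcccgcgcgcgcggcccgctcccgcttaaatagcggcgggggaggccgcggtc
In Arpc4 the box, CCTAATTTGG, was the first 10 bases of the window, 250 bases before the start. A match describes letters of the reference and no binding was measured. Srf itself was at 0.755 ± 0.294 RPKM, and its coactivators Mrtfa and Mrtfb (listed under older symbols) were at 2.20 ± 0.355 RPKM and 5.31 ± 0.630 RPKM.

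Of the genes for the monomer pool, only Tmsb4x reached the level of actin. Tmsb4x encodes thymosin beta-4, which sequesters actin monomers, and was at 2755, 3091 and 2903 RPKM in female A to C and 3898, 2856 and 2765 in male A to C. Tmsb4x exceeded Actb in female A, female B and male A, so the order of these genes was not fixed. Tmsb4x was highest in male A, and the other 5 libraries lay between 2755 and 3091 RPKM. Male A also had the highest summed erythroid markers, 1257 RPKM against 41.4 to 223 in the others, and their part in the Tmsb4x level was not tested. Tmsb10, its relative, was at 169.7, 176 and 229 RPKM in female A to C and 211, 225 and 242 in male A to C, 14.6-fold lower as a geometric mean. Tmsb10 shares 27.0% of its 50-base words with other genes, mostly Gm9844, while Tmsb4x shares none, so the size of that ratio is uncertain. Of the profilins, which exchange nucleotide on actin and feed filament ends, Pfn2, the form typical of neurons, was at 208 ± 31.8 RPKM and Pfn1 at 109 ± 14.6 RPKM. Pfn2 was above Pfn1 in all 6 libraries, by 1.90-fold.

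The filament-cutting factors came next. Cfl1, Cfl2 and Dstn encode the cofilins and destrin, which sever and depolymerise aged filaments. Cfl1 was at 461, 503 and 714 RPKM in female A to C and 564, 786 and 589 in male A to C. Dstn was at 563, 525 and 449 RPKM in female A to C and 562, 419 and 623 in male A to C. Cfl1 was higher in female C and male A and B, and Dstn was higher in the other 3 libraries, so these genes had no fixed order (1.14-fold, exact two-sided permutation test by sign flips, p = 0.469). Cfl2, known from muscle, was at 219.7 ± 21.6 RPKM, 2.71-fold below Cfl1 per length and lower in all 6 libraries. The union of Cfl1 exons in the GENCODE M21 annotation is 2.48 times the length used in the deposited tables, and without a length correction the log2 ratio was -0.54 for Cfl1 over Dstn and 0.08 for Cfl1 over Cfl2. Cfl1 then had more reads than Cfl2 in only 3 of 6 libraries, so the order of these genes rests on the deposited length of Cfl1. Cfl1 also shares 18.3% of its 50-base words with other genes, mostly Snx32, against 1.0% for Cfl2 and 0.0% for Dstn. The part of shared sequence in the level of Cfl1 was not tested. Gsn encodes gelsolin, a calcium-dependent severing and capping protein, and was at 59.6 ± 12.6 RPKM.

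Across the 19 pairs of related genes compared, 17 kept 1 order in all 6 libraries. For each of these the exact two-sided permutation test by sign flips within libraries gave p = 0.03125, the smallest that 64 sign flips allow, and 0.0349 after Benjamini-Hochberg adjustment over the 19 pairs. Any pair with 1 order in all 6 libraries gets this p-value, whatever the size of its ratio. It therefore says only that the order held in these libraries. The exceptions were Cfl1 with Dstn and Evl with Enah. In 8 pairs the mean ratio was over 4-fold. By reads, with no account of length, the pairs of Cfl1 with Cfl2 and of Add1 with Add2 lost their fixed order, and Enah had more reads than Evl in all 6 libraries.

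**Figure D2:**
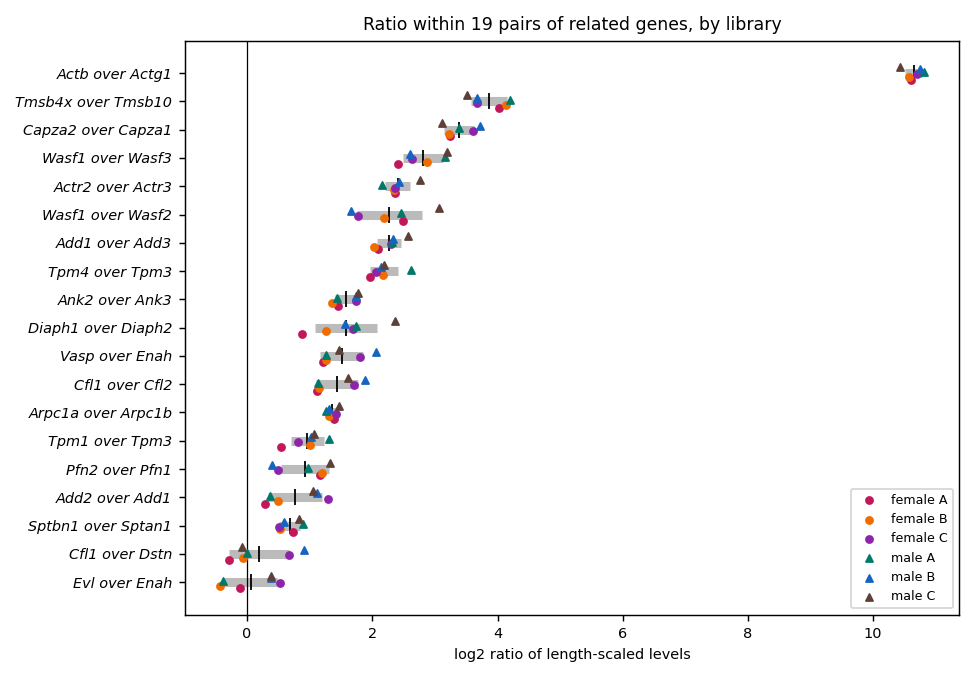
Log2 ratio of length-scaled levels within 19 pairs of related genes, higher gene over lower, with 1 point per library (circles female, triangles male), a black tick at the mean and a grey bar of 1 SD to each side. The pair of Actb and Actg1 stands apart at a mean of 10.64, and only the pairs of Cfl1 with Dstn and of Evl with Enah have libraries on both sides of 0.

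The Arp2/3 complex, which grows branches from the side of existing filaments, was well represented, with its 8 genes summing to 985 ± 87.3 RPKM. Arpc5 was the highest of them at 217 ± 5.32 RPKM, followed by Arpc4 at 160.3 ± 26.9 RPKM, Actr2 at 147 ± 11.9 RPKM, Arpc3 at 135 ± 16.4 RPKM, Arpc2 at 133 ± 20.1 RPKM and Arpc1a at 119 ± 24.6 RPKM. Arpc1b and Actr3 were lower, at 46.1 ± 7.86 RPKM and 27.9 ± 2.30 RPKM. Actr2 and Actr3 encode the actin-related proteins Arp2 and Arp3, which are present in equal number in the complex. Actr2 was at 144, 153 and 139 RPKM in female A to C and 139, 141 and 169 in male A to C. Actr3 was at 27.9, 29.9 and 27.0 RPKM in female A to C and 31.1, 26.4 and 24.9 in male A to C. Actr2 was 5.29-fold above Actr3, the ratio running from 4.47-fold to 6.81-fold. Of Actr3, 26.3% of the 50-base words are shared with other genes, mostly the pseudogene Gm8822, against 0.5% in Actr2, and the level of Actr3 is uncertain for that reason. Arpc1a and Arpc1b, alternative forms of the same subunit, kept the steadiest ratio of the 19 pairs, 2.57-fold with an SD of 0.08 on the log2 scale, although 18.2% of the length of Arpc1b overlaps exons of Pdap1 on the opposite strand and the counting is not stated to use strand. Actr3b and Arpc5l, alternative subunits named here after their values were seen, were at 32.4 ± 3.10 RPKM and 20.0 ± 1.25 RPKM, so that Actr3b was close to Actr3.

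The activators of the complex among the members were each below its lowest subunit gene. The 3 WAVE genes, whose proteins relay Rac signals to Arp2/3 within a larger regulatory complex, were led by Wasf1 at 15.2, 20.0 and 20.7 RPKM in female A to C and 19.6, 19.6 and 23.7 in male A to C. Wasf2 was at 2.70, 4.39 and 6.07 RPKM in female A to C and 3.58, 6.21 and 2.84 in male A to C. Wasf3 was at 2.87, 2.74 and 3.34 RPKM in female A to C and 2.21, 3.23 and 2.59 in male A to C. Wasf1 thus exceeded Wasf2 by 4.83-fold and Wasf3 by 7.01-fold, and none of the 3 genes shares 50-base words with another gene. Wasl, encoding N-WASP, was at 8.44 ± 1.62 RPKM. Brk1, a small subunit of the WAVE regulatory complex, was the highest of the 17 other nucleators and activators listed, at 245 ± 47.6 RPKM, and Was, the WASP gene of blood cells, was listed at 0 in all 6 libraries. A count of 0 allows up to 3 reads of a library's total.

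Genes that elongate straight filaments had the lowest summed levels of any role, 19.5 ± 3.42 RPKM for the 3 Ena/VASP genes and 1.76 ± 0.207 for the 2 formins. Among the Ena/VASP proteins, which hold filament tips open for growth, Vasp was at 8.19, 10.2 and 11.6 RPKM in female A to C and 11.7, 16.3 and 10.4 in male A to C. Evl was at 3.27, 3.17 and 4.78 RPKM in female A to C and 3.73, 5.11 and 4.92 in male A to C. Enah was at 3.54, 4.27 and 3.31 RPKM in female A to C and 4.89, 3.92 and 3.77 in male A to C. Evl and Enah had no fixed order, Evl being higher in female C and male B and C and Enah in the other 3 (1.04-fold, exact two-sided permutation test by sign flips, p = 0.844). Vasp exceeded Enah by 2.85-fold in the mean and in all 6 libraries. The union of Enah exons in GENCODE M21 is 4.99 times the deposited gene model of 4300 bases, so the reads counted cover part of the annotated gene and its rank is uncertain. The diaphanous formins, which nucleate unbranched filaments, were at 1.32 ± 0.233 RPKM for Diaph1 and 0.441 ± 0.085 RPKM for Diaph2. Diaph1 was 2.99-fold above Diaph2, higher in all 6 libraries. Of the 8 other formins listed, Fmnl2 had the highest level at 8.63 ± 1.26 RPKM and Fmnl3 the lowest at 0.180 ± 0.049 RPKM, both named after their values were seen.

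Capping protein, a dimer of an alpha and a beta chain that closes growing ends, was led by Capza2. Its level was 151, 145 and 117 RPKM in female A to C and 163, 124 and 134 in male A to C. Capza1, the other alpha chain gene, was at 15.9, 15.6 and 9.65 RPKM in female A to C and 15.6, 9.40 and 15.4 in male A to C. Capza2 was 10.4-fold above Capza1 as a geometric mean. Of the 50-base words of Capza1, 64.5% are shared with other genes, 61.0% with the pseudogene Gm3608 alone, the largest share of any member, and the low level of Capza1 is uncertain. Capzb, the beta chain gene, was at 99.5 ± 17.7 RPKM, which is less than Capza2 and more than Capza1.

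Tropomyosins are coiled coils that lie along filaments and set which proteins can bind there. Tpm4 was at 83.4, 81.8 and 86.8 RPKM in female A to C and 85.7, 87.0 and 77.7 in male A to C. Tpm1 was at 35.8 ± 2.79 RPKM. Tpm3 was at 21.5, 18.2 and 20.8 RPKM in female A to C and 14.0, 19.7 and 17.0 in male A to C, 4.56-fold below Tpm4 and 1.94-fold below Tpm1 as geometric means. Shared sequence was 23.2% for Tpm3, all of it also found in Tpm3-rs7, and 15.7% for Tpm4. Tpm2, the muscle-type gene of the wider list, was at 1.02 ± 0.329 RPKM.

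The membrane skeleton of the axon was present with the forms known from neurons. Sptan1, the alpha-II spectrin gene, was at 58.8 ± 4.22 RPKM, and Sptbn1, the beta-II spectrin gene, at 94.6 ± 10.98 RPKM. Sptbn1 was 1.60-fold above its partner in the mean and higher in all 6 libraries. Among the other beta spectrin genes, Sptb was at 0.852 ± 0.239 RPKM, and Sptbn4, the spectrin of axon initial segments and nodes, at 0.048 ± 0.026 RPKM. Ank2, encoding ankyrin-B of the axon shaft, was at 28.1 ± 2.66 RPKM, and Ank3, encoding ankyrin-G of the initial segment, at 9.41 ± 1.37 RPKM, a ratio of 3.00-fold. The ankyrin gene models are long, at 35218 and 33152 bases, and these genes ranked higher by reads than per length: Ank2 was 5th of the 42 members by CPM and 26th by RPKM. Adducins cap filaments and join them to spectrin. Add1, the alpha chain gene, was at 43.9, 45.1 and 53.2 RPKM in female A to C and 46.3, 55.6 and 57.0 in male A to C. Add3, the gamma chain gene, was at 10.3, 11.01 and 10.8 RPKM in female A to C and 9.30, 11.1 and 9.62 in male A to C, 4.83-fold below Add1. Add2, the beta chain gene, was at 90.8 ± 35.3 RPKM, 1.70-fold above Add1 as a geometric mean and higher in all 6 libraries. The union of Add2 exons in GENCODE M21 is 3.25 times the deposited length, and without a length correction the mean log2 ratio of Add1 over Add2 was 0.19. Of the 8 related genes of the periodic skeleton listed, Tmod2, the tropomodulin of neurons, had the highest mean at 69.4 ± 3.66 RPKM. Tmod3, a widely expressed tropomodulin named after its values were seen, was at 65.7 ± 10.6 RPKM and above Tmod2 in 3 of 6 libraries.

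Most members had a smaller spread between libraries than the median tested gene. The SD of log2 CPM over the 6 libraries had a median of 0.21 over members, against 0.30 over all tested genes and 0.28 over the 13216 tested genes with levels at least that of the lowest member. It exceeded the median over all tested genes for 9 of 42 members. Neither set of genes was matched to the members in level. The median level was 54.5 RPKM over members and 3.93 RPKM over tested genes, and the part of abundance in the smaller spread was not tested. The steadiest were Arpc5 with an SD of 0.04, Tpm4 with 0.06 and Sptan1 with 0.10. Arpc5 was at 209, 215 and 214 RPKM in female A to C and 218, 219 and 225 in male A to C, a range of 1.07-fold. Sptan1 was at 54.7, 66.4 and 57.0 RPKM in female A to C and 57.3, 56.6 and 60.8 in male A to C. With the relation to GC content removed, an alternative chosen after the data were seen, the SD of Arpc5 was 0.11 and that of Tpm4 0.12, and Gsn, at 0.10, was below both. Without female B, which was highest for Sptan1, its SD was 0.05, and without male C that of Tpm4 was 0.04.

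Fscn1, Dbn1 and Add2 had the largest spread. Fscn1 encodes fascin, the bundler of filopodial actin, and lies at chr5:142960343-142973185. Its levels were 10.3, 17.3 and 60.0 RPKM in female A to C and 16.9, 61.2 and 17.7 in male A to C. Female C and male B were over 3-fold above each of the other 4 libraries, and female A was the lowest, a range of 5.95-fold with an SD of 1.07 on the log2 scale. Dbn1 encodes drebrin, which binds along filaments of growth cones and dendritic spines, and lies at chr13:55473429-55488111. Its levels were 12.9, 18.5 and 39.8 RPKM in female A to C and 16.8, 38.1 and 18.3 in male A to C. The same libraries, female C and male B, were the highest, with an SD of 0.67. Add2, at chr6:86078084-86119555, was at 53.5, 63.4 and 129.7 RPKM in female A to C and 59.6, 121 and 118 in male A to C. Here male C joined the high libraries, the other 3 lay between 53.5 and 63.4 RPKM, and the SD was 0.59. Each pattern crosses the sexes, since female C and male B carry different sex labels. Without both of these libraries, an alternative chosen after the data were seen, the SD was 0.38 for Fscn1, 0.24 for Dbn1 and 0.51 for Add2.

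**Figure D3:**
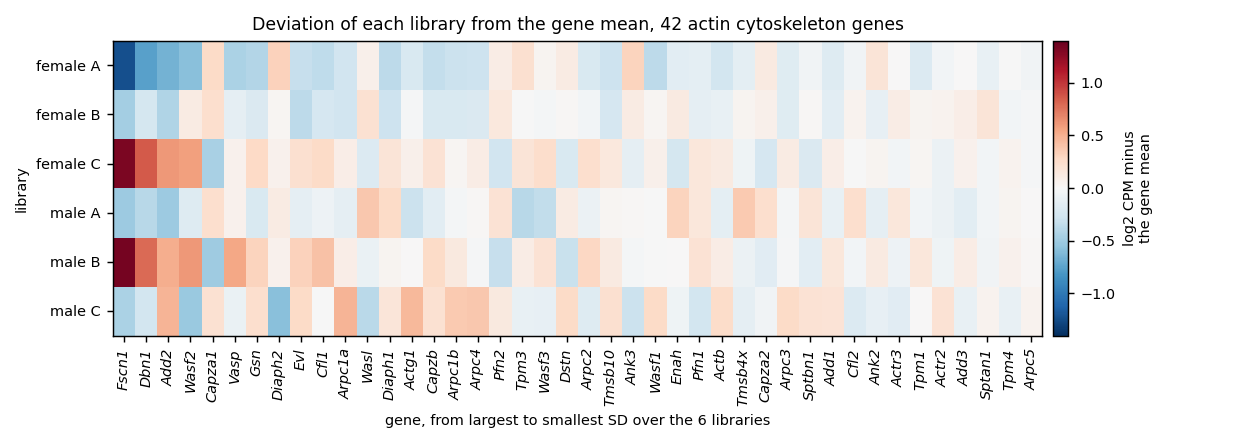
Log2 CPM of each library minus the mean of the gene over the 6 libraries, red above and blue below, for the 42 genes ordered from the largest SD at the left to the smallest at the right. Fscn1, Dbn1, Add2 and Wasf2 are red in female C and male B and blue in female A, and the columns pale toward Sptan1, Tpm4 and Arpc5.

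Female C and male B were the highest libraries together for 10 of 42 members (23.8%), where 20.0% of all tested genes had them so. They were the lowest together for 5 members (11.9%), where the share over all tested genes was 18.4%. The first share is near that of all genes and is no result about the members. Those high in both were Fscn1, Dbn1, Add2, Wasf2, Gsn, Cfl1, Wasf3, Arpc2, Pfn1 and Tpm4, and those low in both were Capza1, Pfn2, Dstn, Capza2 and Sptbn1. With the GC relation removed, Pfn1 lay below its mean in both libraries, by 0.19 and 0.18 on the log2 scale. Over all tested genes female C and male B were also the most alike of the 15 pairs of libraries, with a Pearson correlation of log2 CPM across genes of 0.99, against 0.965 to 0.985 for the others.

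Some other measures moved with these libraries. Across the 42 members, the Pearson correlation of a library's deviation with transcript GC content was 0.60 in female C, 0.62 in male B and 0.15 in male C, and -0.66, -0.65 and -0.50 in female A, female B and male A. Over 14938 tested genes with a GC value it was 0.47 in female C, 0.40 in male B and -0.54 in female A. These are correlations across genes, which are not independent replicates. Fscn1 at 60.6% GC and Dbn1 at 58.2% are among the richest members in GC, while Add2 is at 52.0%. With the GC relation removed, the SD was 0.73 for Fscn1, 0.41 for Dbn1 and 0.52 for Add2, and it went from 0.31 to 0.10 for Gsn. All 7 genes of the immediate early list, which dissociation of tissue is known to induce, had female C and male B as their highest libraries, and the list summed to 402 RPKM in female C and 382 in male B, with 255 in male C and 51.5 to 120 in the other 3. The summed glial list was 1083 RPKM in female C and 1123 in male B. It was 1141 RPKM in male C and 961 to 1044 in female A, female B and male A. Of its 12 tested genes, 4 had female C and male B as their highest libraries and 1, Fabp7, as its lowest. Of 6 tested fibroblast genes, 3 had them highest and 1, Dcn, lowest. Over all tested genes these shares were 20.0% and 18.4%. The summed fibroblast list was 161.7 RPKM in female C and 169.9 in male B. It was 175.2 RPKM in female A, 152.5 in female B, 171.4 in male A and 149.7 in male C. Gfap, an intermediate filament gene of glia, was at 0.065 ± 0.090 RPKM. Whether GC content, the immediate early response or cells other than neurons had a part in the levels of Fscn1, Dbn1 or Add2 was not tested.

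**Figure D4:**
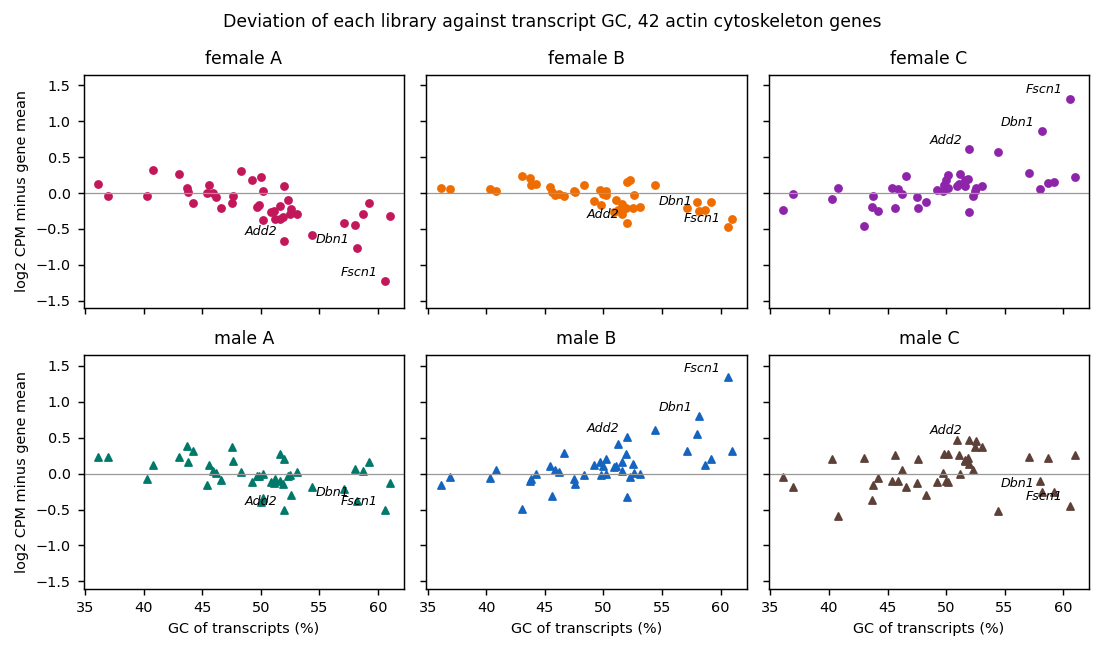
Log2 CPM of a library minus the gene mean against the GC content of annotated transcripts in percent, 1 panel per library, 1 point for each of the 42 genes. Points rise with GC in female C and male B (r of 0.60 and 0.62) and fall in female A, female B and male A, and Fscn1 and Dbn1 lie at the high-GC end.

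Female A and male C had their own places. Female A was the lowest library for 22 of 42 members, Actb and Tmsb4x among them, where 19.2% of all tested genes had it lowest. With the GC relation removed it was lowest for 21 members, against 16.5% of all tested genes. The summed neuronal marker list was also lowest in female A, at 3319 RPKM, and highest in male C, at 5105. Male C was the highest library for 13 members, beside 22.7% of all tested genes, and the lowest for 7, beside 22.9%. Of the 8 Arp2/3 genes, 6 were highest in male C: Arpc1a, Arpc1b, Arpc3, Arpc4, Arpc5 and Actr2, while Arpc2 was highest in male B and Actr3 was lowest in male C. Male C is the library of 1 embryo and of the shortened genotype label, and whether either bears on these values was not tested.

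Between the sexes no member changed past the threshold. With edgeR's quasi-likelihood test and Benjamini-Hochberg adjustment over all 15026 tested genes, 5 genes were called at 0.05 (0.0333%), and 0 of the 42 members. At an unadjusted p under 0.05 there were also 0 members, and DESeq2 and limma-voom called 0 members. The log2 fold changes, female over male, lay between -0.35 and 0.25 with standard errors from 0.14 to 0.64, and 30 members were higher in males and 12 in females (28.6%), where 49.1% of all tested genes were higher in females. The libraries of 1 group come from different embryos, so these tests measure the spread between those pools. The directions of the 42 members are not independent, since all come from the same libraries and female A was the lowest for 22 of them. The share higher in males was not tested. The smallest p-values, unadjusted in edgeR's quasi-likelihood test, were those of Arpc1b, Arpc1a and Vasp.

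Arpc1b was at 37.1, 39.3 and 46.5 RPKM in female A to C and 44.7, 50.1 and 58.9 in male A to C, a log2 fold change of -0.32 (SE 0.17, edgeR unadjusted p = 0.0848, adjusted p = 1.00). Arpc1a was at 96.9, 97.3 and 125 RPKM in female A to C and 107, 124 and 162 in male A to C, a log2 fold change of -0.30 (SE 0.19, edgeR unadjusted p = 0.148). Vasp, whose levels are given above, had -0.35 (SE 0.23, edgeR unadjusted p = 0.149). In each of them the female and male libraries overlapped. Arpc5 was the only member whose sexes did not overlap, at 213 ± 3.01 RPKM in females and 221 ± 3.50 in males (n = 3 each), where 5.7% of all tested genes did not overlap; its log2 fold change was -0.05 (SE 0.14). For Fscn1 the log2 fold change was -0.13 and the standard error, 0.64, was the largest of the members.

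**Figure D5:**
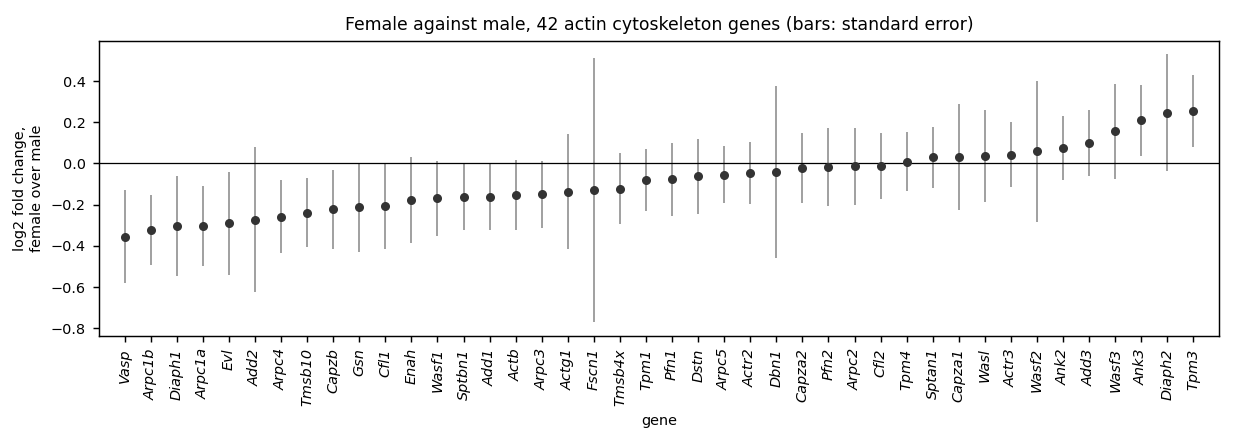
Log2 fold change, female over male, from the edgeR fit for each of the 42 genes, ordered by value, with bars of 1 standard error to each side. All values lie between -0.35 and 0.25, and the bar of Fscn1, at 0.64, is the longest.

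The wider set of 87 actin genes gave the same count for sex, with 83 tested and 0 called by edgeR's quasi-likelihood test. Flna, encoding filamin A and named after its values were seen, was the only gene of the set with an unadjusted p under 0.05, at a log2 fold change of 0.54 (edgeR unadjusted p = 0.0347). In levels the set was led by Gap43, the growth-associated protein of axon terminals, at 1338 ± 101 RPKM, above every member except Actb and Tmsb4x. Of the myosins, the light chain gene Myl6 was highest at 199 ± 23.0 RPKM and the heavy chain gene Myh14 lowest at 0.322 ± 0.146 RPKM. Of the other actins and actin-related genes Actr1a, a dynactin subunit, was highest at 167 ± 29.1 RPKM. Coro1b, a coronin, was counted at 0 or 1 read, but 15 of the 16 other genes within 70000 bases of it, housekeeping genes such as Ppp1ca among them, also had at most 1 read in every library, so its value cannot be read as a level of expression.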

How the data were processed

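RNA from sorted cells was reverse transcribed from 10 ng with a SMARTer kit and sequenced on an Illumina instrument, per the labels' protocols. Counting used featureCounts 1.4.5 (Subread) and the build GRCm38.p2, per the submitters' processing notes. Not given in the sources used here were the annotation release, the use of strand and the handling of reads matching more than 1 place. The authors deposited a table per library with gene coordinates, length, whole-number read counts, CPM (count per 1e+06 of the library total) and RPKM (CPM per kilobase). Deposited CPM and RPKM were checked to be recomputable from the counts and lengths, and all values used here come from the counts. Library totals, in units of 1e+06 counts, were 15.81, 24.03 and 23.00 for female A to C and 22.38, 23.56 and 15.69 for male A to C. Reads are PCR products without molecular identifiers, so limits from counts cover counting error only.

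Symbols came from GENCODE M21 by Ensembl identifier (40254 of 41388, 97.26%; Mkl1 and Mkl2 through RefSeq synonyms). Library sizes were scaled by TMM in edgeR 4.0.16 (R 4.3.3). Sex was tested with edgeR's quasi-likelihood test on genes kept by filterByExpr, 15026 genes, with Benjamini-Hochberg adjustment at 0.05, two-sided, without the letters as a block; DESeq2 1.42.0 and limma-voom (limma 3.58.1) were alternatives. Spread is the SD of log2 CPM with a prior count of 2. Pairs were compared by an exact sign-flip permutation test. Shared sequence is the share of a gene's 50-base words found in transcripts of other genes in GENCODE M21. The GC relation was removed with a lowess curve of span 0.3 per library. The edgeR step was tested on simulated data whose planted changes were larger than those of any member. That test therefore does not cover changes of the size seen here. Promoters are from RefSeq; protein sequences were not used here.

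The members and lists were chosen with earlier results of these data known. By the rule used, values in every library are given for the 3 highest members, for pairs with a mean ratio over 4-fold or under 1.5-fold, for the 3 members of largest and of smallest SD and for the 3 of smallest p for sex; the other lists give their highest and lowest genes, some of which are not reported here. Scn10a, Ret, Gfap, Mrtfa, Acta1, Sptb, Sptbn4 and Tpm2 were picked with their values in view. So were Fabp7, Sox10, Erbb3, Cdh19, Foxd3 and the fibroblast genes below Dcn. Wasf2 in the plot of deviations, Gsn with the GC relation removed and the genes said so in the text were picked in the same way. The alternatives without the GC relation and without female C and male B together were added then too.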

Additional observations from a re-analysis of the deposited data

Results flagged for a closer look

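Of the 42 actin genes, each checked for a library whose distance from its nearest neighbour takes up most of the range over the 6 libraries, 1 had such a library. Tmsb4x, the thymosin beta-4 gene, stood at 3898 RPKM in male A, and the other 5 libraries lay between 2755 and 3091 RPKM. Chance alone gives such a library in about 1 of 20 genes. Male A also had the highest summed erythroid marker list, 1257 RPKM against 41.4 to 223 RPKM in the other libraries, led by Hbb-bs, and the part of blood cells in the Tmsb4x value was not tested.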

How the results depend on the processing

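The count of 15 members at 100 RPKM or more became 29 at 100 CPM when CPM replaced RPKM, because CPM takes no account of gene length; it ran from 15 to 16 with each library left out. Without a length correction the log2 ratio turned to -0.54 for Cfl1 over Dstn, to -0.61 for Evl over Enah and to 0.19 for Add1 over Add2. Evl over Enah ran from -0.0339 to 0.158 with each library left out, and was below 0 without female C, male B or male C (-0.0339, -0.00411 and -0.00432). The count of 17 pairs in 1 order ran from 16 to 17 over its alternatives, but the pairs changed without a length correction, where Cfl1 with Cfl2 and Add1 with Add2 lost and Evl with Enah gained a fixed order. The count of 9 members more variable than the median tested gene ran from 8 to 12. For sex, 0 members were called under all 15 alternatives, a threshold of 0.1 among them, and the smallest adjusted p over them was 0.782 (edgeR, without female C, where 4 members had an unadjusted p under 0.05); it was 1.00 in the fit reported. The letters are not said to pair the libraries. Deviations of same-lettered libraries from their group means correlated at 0.28, -0.29 and -0.08. These cannot decide whether the letters pair them, because deviations within a group depend on one another. With the letter as a replicate block 0 members were called. Depth limits the lowest member, Diaph2, to 49 to 125 reads per library.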
